A study of Mus musculus with 6 samples.

Results

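The vascular endothelial growth factor (VEGF) and angiopoietin-Tie genes are a group of 10 genes, 5 that encode secreted ligands (Vegfa, Vegfb, Vegfc, Angpt1 and Angpt2) and 5 that encode their receptor tyrosine kinases (Flt1, Kdr, Flt4, Tek and Tie1). They were chosen by gene symbol from a list, and each of the 10 symbols matched 1 row of the 22298 genes in the deposited table. Heart RNA was sequenced from female wild-type mice aged 18 months, 3 after TAC surgery and 3 after sham surgery. TAC usually stands for transverse aortic constriction, in which a band around the aortic arch makes the left ventricle pump against a raised pressure. The sources used here do not give the mouse strain, the time from surgery to sampling or the part of the heart taken. The sample titles number the hearts from 1 to 3 within each surgery, but no label states that each is a different animal. The tests therefore measure how much these samples vary, and the technical part of that was not tested. The libraries were made from polyadenylated RNA selected with oligo(dT).

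VEGF-A acts on endothelial cells mainly through its receptor VEGFR2, the product of Kdr, and drives the growth and permeability of blood vessels. VEGFR1, the product of Flt1, binds VEGF-A tightly with weak kinase activity and, in its soluble form, acts as a decoy. VEGFR3, the product of Flt4, responds to VEGF-C and VEGF-D and is best known for the growth of lymphatic vessels. Angiopoietin 1 activates the receptor Tie2, the product of Tek, and keeps vessels quiescent, angiopoietin 2 mostly opposes it, and Tie1 is a related receptor that forms complexes with Tie2. In the heart, cardiomyocytes make much of the VEGF-A and VEGF-B, and the capillary endothelium carries the receptors.

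The libraries held 19747265 to 27549838 estimated counts. The cardiomyocyte gene Mb, which encodes myoglobin, stood between 5571 and 9186 FPKM in TAC and between 9112 and 9485 FPKM in sham hearts. FPKM is a level scaled by gene length and library total, and CPM is a count scaled to a common library size. TAC replicate 1 stood apart from TAC replicates 2 and 3. On the first principal component of log2 CPM, which held 54.6% of the variance, it lay at 0.65, against 48.9 and 53.5 in TAC replicates 2 and 3 and -37.3 to -31.4 in the sham libraries. Results that rest on it are therefore given with and without it.

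All 10 genes were expressed above the filter on low counts in these hearts, and 1 of them, Tie1, differed between the groups past the threshold. By the fitted fold change, Tie1 RNA fell by 35.3% in TAC hearts. None of the 10 genes was called higher by edgeR, DESeq2 or limma, nor at an unadjusted edgeR p under 0.05 (0 genes, against 3 lower), and 9 did not pass. Over all 13708 genes tested, 1.66% were called (edgeR quasi-likelihood test, adjusted p under 0.05), 1.12% higher and 0.54% lower in TAC. At an unadjusted edgeR p under 0.05, 16.3% of all tested genes were higher and 9.26% lower, and DESeq2 called 7.81% higher and 4.36% lower. These shares are the background for the counts by either rule in each list. The values of Tie1, Tek and Vegfc did not overlap between the groups, each lower in TAC, as was so of 13.1% of all tested genes. None of the 10 genes was higher without overlap, against 18.4% of all tested genes. The median log2 fold change of the 10 genes was -0.12, with 4 positive and 6 negative, against a median of 0.03 over all tested genes, 52.9% of them positive and 47.1% negative.

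**Figure D1:**
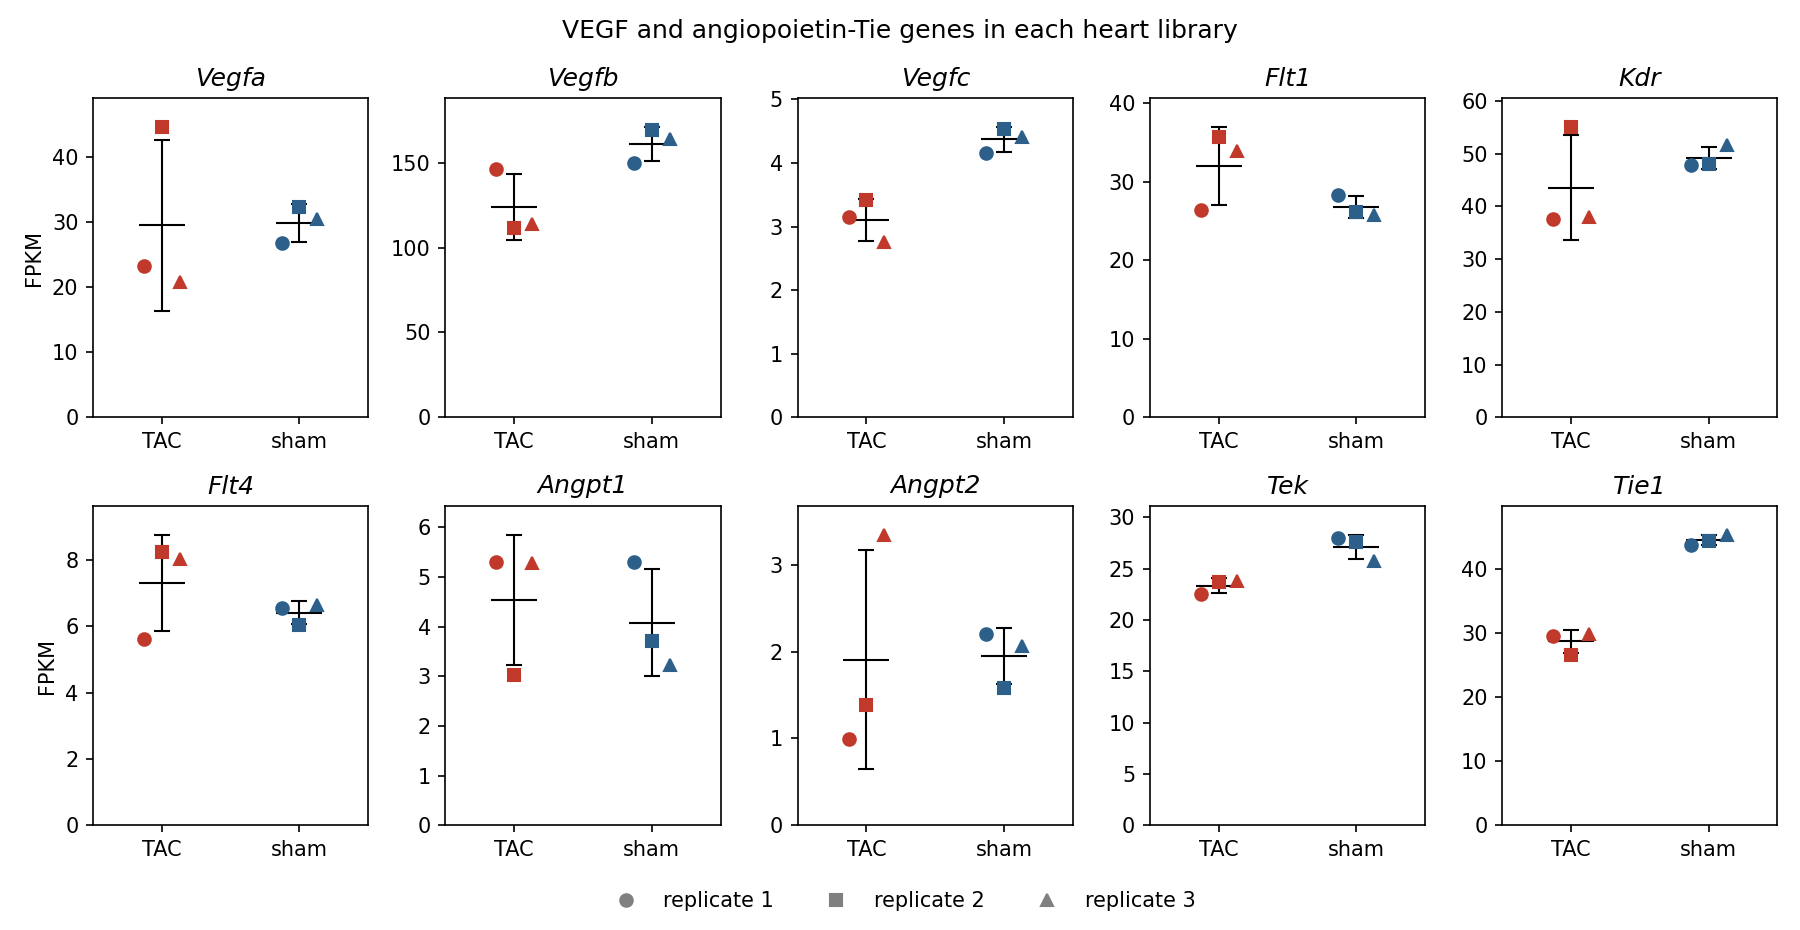
FPKM (y axis, linear, from 0) of the 10 VEGF and angiopoietin-Tie genes in 3 TAC (red) and 3 sham (blue) heart libraries. The marker shape gives the replicate number, and horizontal lines with bars give the group mean and SD; Tie1 lay between 26.5 and 29.9 FPKM in TAC and between 43.7 and 45.2 FPKM in sham hearts, while Vegfa and Angpt2 spread widely in TAC.

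Vegfb (ENSMUSG00000024962, GRCm38 chromosome 19, minus strand, 6982473 to 6987651) was the most abundant of the 10 genes. It encodes VEGF-B, a ligand of VEGFR1 that is linked to coronary vessels and to fatty acid handling. Its level was 146, 112 and 114 FPKM in TAC replicates 1, 2 and 3, against 150, 169 and 164 FPKM in sham replicates 1, 2 and 3. TAC replicates 2 and 3 were low and TAC replicate 1 lay just under the lowest sham library in FPKM. In CPM the groups overlapped, since TAC replicate 1 had 186.9 CPM and sham replicate 1 had 185.5 CPM. The log2 fold change was -0.37 (SE 0.16, 95% interval -0.74 to -0.0007, edgeR adjusted p = 0.195). Without TAC replicate 1 it was -0.57 with an edgeR adjusted p = 0.0171, in a fit that called 23.2% of all genes in either direction.

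Vegfa (ENSMUSG00000023951, GRCm38 chromosome 17, minus strand, 46016993 to 46032369), which encodes the main angiogenic ligand, varied more between TAC hearts than between sham hearts. It stood at 23.2, 44.5 and 20.7 FPKM in TAC replicates 1, 2 and 3, against 26.7, 32.4 and 30.4 FPKM in sham replicates 1, 2 and 3. TAC replicate 2 lay above all sham libraries and the other two TAC libraries lay below all of them. The highest TAC value was 2.15 times the lowest, against 1.21 times in sham hearts. The group means were 29.5 ± 13.1 FPKM in TAC and 29.8 ± 2.87 FPKM in sham hearts (SD, n = 3 each), and the log2 fold change was 0.06 (SE 0.25, 95% interval -0.52 to 0.64, edgeR adjusted p = 0.907). Its sign depended on TAC replicate 2: without that library the log2 fold change was -0.35 (edgeR adjusted p = 0.229), and limma on log2(FPKM + 1) gave -0.093 with all libraries.

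Vegfc (ENSMUSG00000031520, GRCm38 chromosome 8, plus strand, 54077606 to 54187096) encodes VEGF-C, the ligand of VEGFR3 in lymphatic growth. It was at 3.15, 3.41 and 2.76 FPKM in TAC hearts, against 4.16, 4.54 and 4.41 FPKM in sham hearts. All 3 TAC libraries were below all 3 sham libraries. Its fitted log2 difference was -0.48 (SE 0.16, 95% interval -0.85 to -0.12), which did not pass (edgeR adjusted p = 0.114). The counts of Vegfc ranged from 150 to 306, low beside most of the 10 genes, and those of Angpt2 from 91 to 264.

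Of the summed FPKM of the VEGF ligand genes Vegfa, Vegfb, Vegfc, Vegfd and Pgf, Vegfb made up 82.1%, 67.5% and 78.3% in TAC replicates 1, 2 and 3, against 80.8%, 80.5% and 80.8% in sham hearts. The sum was 178, 165 and 145 FPKM in TAC hearts and 186, 210 and 203 FPKM in sham hearts. All TAC sums lay below all sham sums, and 1 gene, Vegfb, carries most of each sum. The total counts of the TAC libraries lay within the range of the sham libraries.

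Among the VEGF receptor genes, Kdr was the most abundant and Flt4 the least. Kdr (ENSMUSG00000062960, GRCm38 chromosome 5, minus strand, 75932827 to 75978458) stood at 37.6, 55.1 and 38.1 FPKM in TAC hearts, against 47.9, 48.1 and 51.7 FPKM in sham hearts. TAC replicate 2 was the highest of all libraries, as for Vegfa, and TAC replicates 1 and 3 the lowest. Its log2 fold change was -0.17 (SE 0.18, 95% interval -0.58 to 0.24, edgeR adjusted p = 0.574). With TAC replicate 1, 2 or 3 left out, it was -0.11, -0.41 or -0.059.

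Flt1 (ENSMUSG00000029648, GRCm38 chromosome 5, minus strand, 147561604 to 147726011) was at 26.4, 35.7 and 33.9 FPKM in TAC hearts, against 28.4, 26.2 and 25.8 FPKM in sham hearts. TAC replicates 2 and 3 were above all sham libraries and TAC replicate 1 was within their range. The log2 fold change was 0.25 (SE 0.14, 95% interval -0.07 to 0.58, edgeR adjusted p = 0.293). Leaving out TAC replicate 1 gave 0.33 (edgeR adjusted p = 0.0897), and leaving out TAC replicate 2 gave 0.12 (edgeR adjusted p = 0.611). The table gives 1 value per gene, so the soluble and the membrane form of VEGFR1 were not told apart.

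Flt4 (ENSMUSG00000020357, GRCm38 chromosome 11, plus strand, 49609263 to 49652739) was at 5.63, 8.24 and 8.04 FPKM in TAC hearts, against 6.57, 6.03 and 6.65 FPKM in sham hearts. As with Flt1, TAC replicates 2 and 3 were above all sham libraries, and TAC replicate 1 was below them. Its fitted log2 difference was 0.18 (SE 0.14, 95% interval -0.15 to 0.52, edgeR adjusted p = 0.452). It was 0.30 with TAC replicate 1 left out (edgeR adjusted p = 0.0837). Leaving out TAC replicate 2 gave 0.044 (edgeR adjusted p = 0.877). The intervals of Kdr, Flt1 and Flt4 all hold 0, so a difference in either direction was not detectable with 3 hearts per group, within those bounds. The sum of the 3 receptor genes was 69.6, 99.0 and 80.0 FPKM in TAC hearts, against 82.8, 80.3 and 84.1 FPKM in sham hearts, which overlapped, and Flt1 made up 38.8% ± 3.25 of it in TAC and 32.5% ± 1.80 in sham hearts (SD, n = 3 each).

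Angpt1 and Angpt2 were low and variable. Angpt1 (ENSMUSG00000022309, GRCm38 chromosome 15, minus strand, 42424723 to 42676977) was at 5.30, 3.03 and 5.28 FPKM in TAC hearts, against 5.29, 3.71 and 3.23 FPKM in sham hearts, and the groups overlapped. Its log2 fold change was 0.15 (SE 0.26, 95% interval -0.45 to 0.76, edgeR adjusted p = 0.739), and it was -0.037 without TAC replicate 1 and -0.0070 without sham replicate 3. Angpt2 was at 0.99, 1.38 and 3.34 FPKM in TAC hearts, against 2.2, 1.58 and 2.06 FPKM in sham hearts. TAC replicate 3 was the highest library and TAC replicates 1 and 2 the lowest. Its counts were 91, 115 and 264 in TAC hearts and 155 in each sham heart. The log2 fold change of Angpt2 was -0.06 (SE 0.39, 95% interval -0.95 to 0.82, edgeR adjusted p = 0.936), the widest interval of the 10 genes. Without TAC replicate 1, TAC replicate 2 or sham replicate 1 it was 0.21, 0.08 or 0.02.

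Angpt2 (ENSMUSG00000031465, GRCm38 chromosome 8, minus strand, 18690263 to 18741562) overlaps Mcph1, and the kit is not stated to keep the strand, so reads of both genes may not have been told apart. Mcph1, a gene of chromosome condensation, was at 1.07, 1.11 and 1.82 FPKM in TAC hearts, against 1.5, 1.31 and 1.41 FPKM in sham hearts. TAC replicate 3 was thus the highest library for both genes. Angpt1 overlaps the annotated gene Gm17473. The part of overlapping reads in either result was not tested.

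Tie1 (ENSMUSG00000033191, GRCm38 chromosome 4, minus strand, 118471191 to 118490061) was the only one of the 10 genes past the threshold. It stood at 29.6, 26.5 and 29.9 FPKM in TAC replicates 1, 2 and 3, against 43.7, 44.3 and 45.2 FPKM in sham replicates 1, 2 and 3. All TAC libraries were low, TAC replicate 1 included, and the gap between the groups was several times the range within either. The means were 28.7 ± 1.84 FPKM in TAC and 44.4 ± 0.788 FPKM in sham hearts (SD, n = 3 each). The log2 fold change was -0.63 (SE 0.11, 95% interval -0.89 to -0.37, edgeR adjusted p = 0.0414), lower in 3 of 3 TAC hearts.

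With 1 library left out, the Tie1 log2 fold change stayed between -0.70 and -0.61. The edgeR adjusted p was 0.00760 without TAC replicate 1. The call was lost without each of the other 5 libraries, with an adjusted p of 0.107 without TAC replicate 2 and 0.0510 without TAC replicate 3. Without sham replicates 1, 2 and 3 it was 0.151, 0.215 and 0.225. On the deposited FPKM, limma gave a log2 difference of -0.62 on the log2(FPKM + 1) scale with an adjusted p = 0.0464.

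Tek (ENSMUSG00000006386, GRCm38 chromosome 4, plus strand, 94739289 to 94874976), the gene of Tie2, had a smaller difference in the same direction. It was at 22.6, 23.8 and 23.8 FPKM in TAC hearts, against 28.0, 27.6 and 25.8 FPKM in sham hearts. The groups did not overlap, but the nearest TAC and sham libraries were close. Its fitted log2 difference was -0.22 (SE 0.11, 95% interval -0.47 to 0.03, edgeR adjusted p = 0.244), which did not pass. In TAC hearts Tek had the narrowest spread of the 10 genes, with a coefficient of variation of 2.93%, against 4.35% in sham hearts. In the other 9 genes the spread was larger in TAC than in sham hearts, as in 76.8% of all tested genes. The summed level of Tie1 and Tek was 52.1, 50.3 and 53.7 FPKM in TAC hearts, against 71.6, 71.9 and 71.0 FPKM in sham hearts, and Tie1 made up 55.1% ± 2.04 of it in TAC and 62.1% ± 1.44 in sham hearts (SD, n = 3 each).

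**Figure D2:**
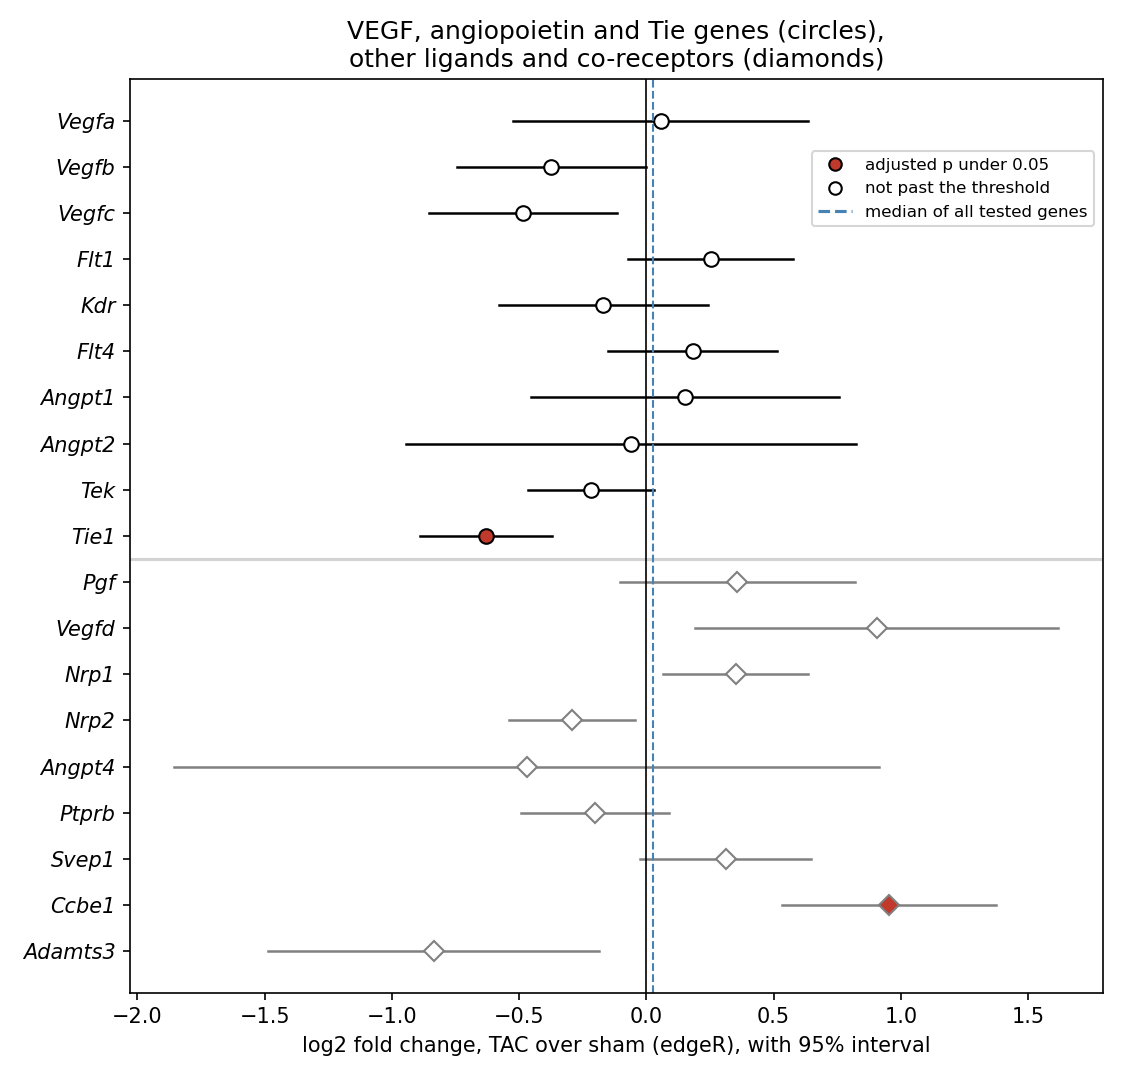
Fitted log2 fold change of TAC over sham (x axis; points) with its 95% interval (lines) for the 10 VEGF and angiopoietin-Tie genes (circles) and 9 other ligand, co-receptor and processing genes (diamonds). Filled points passed the threshold; these were Tie1 at -0.63 and Ccbe1 at 0.95, and the dashed line marks the median of all tested genes, 0.03.

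The ratio of 2 genes within a library does not depend on how libraries are scaled, and 5 such ratios of FPKM were compared. Tie1 to Tek was 1.31, 1.12 and 1.26 in TAC hearts, against 1.56, 1.61 and 1.76 in sham hearts. Kdr to Flt1 was 1.43, 1.54 and 1.12 in TAC hearts, against 1.69, 1.84 and 2.01 in sham hearts. Flt4 to Kdr was 0.15, 0.15 and 0.211 in TAC hearts, against 0.137, 0.125 and 0.129 in sham hearts.

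These 3 ratios did not overlap between the groups, TAC replicate 1 included. Kdr to Flt1 and Flt4 to Kdr share Kdr, so they are not separate results. The share of all gene pairs without such overlap was not computed. Of all single genes tested, 31.5% had no overlap in CPM. The mean log2 differences were -0.42 for Tie1 to Tek, -0.45 for Kdr to Flt1 and 0.37 for Flt4 to Kdr. Without TAC replicate 3, Flt4 to Kdr differed by 0.20. With all libraries, each gave p = 0.1 in the exact two-sided permutation test, the smallest p that 3 against 3 allows, and an adjusted p = 0.167 over the 5 ratios. The design is too small to pass 0.05.

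Angpt2 to Angpt1 was 0.187, 0.455 and 0.633 in TAC hearts, against 0.416, 0.426 and 0.638 in sham hearts. Its groups overlapped, with an exact permutation p = 0.8 and an adjusted p = 0.9. Vegfa to Vegfb was 0.158, 0.399 and 0.182 in TAC hearts, against 0.178, 0.191 and 0.185 in sham hearts. TAC replicate 2 stood out above every other library, and the exact permutation p was 0.9, as was the adjusted p. Without TAC replicate 1 the log2 difference of Angpt2 to Angpt1 was 0.15, against -0.36 with it, and without TAC replicate 2 that of Vegfa to Vegfb was -0.12, against 0.29 with it.

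**Figure D3:**
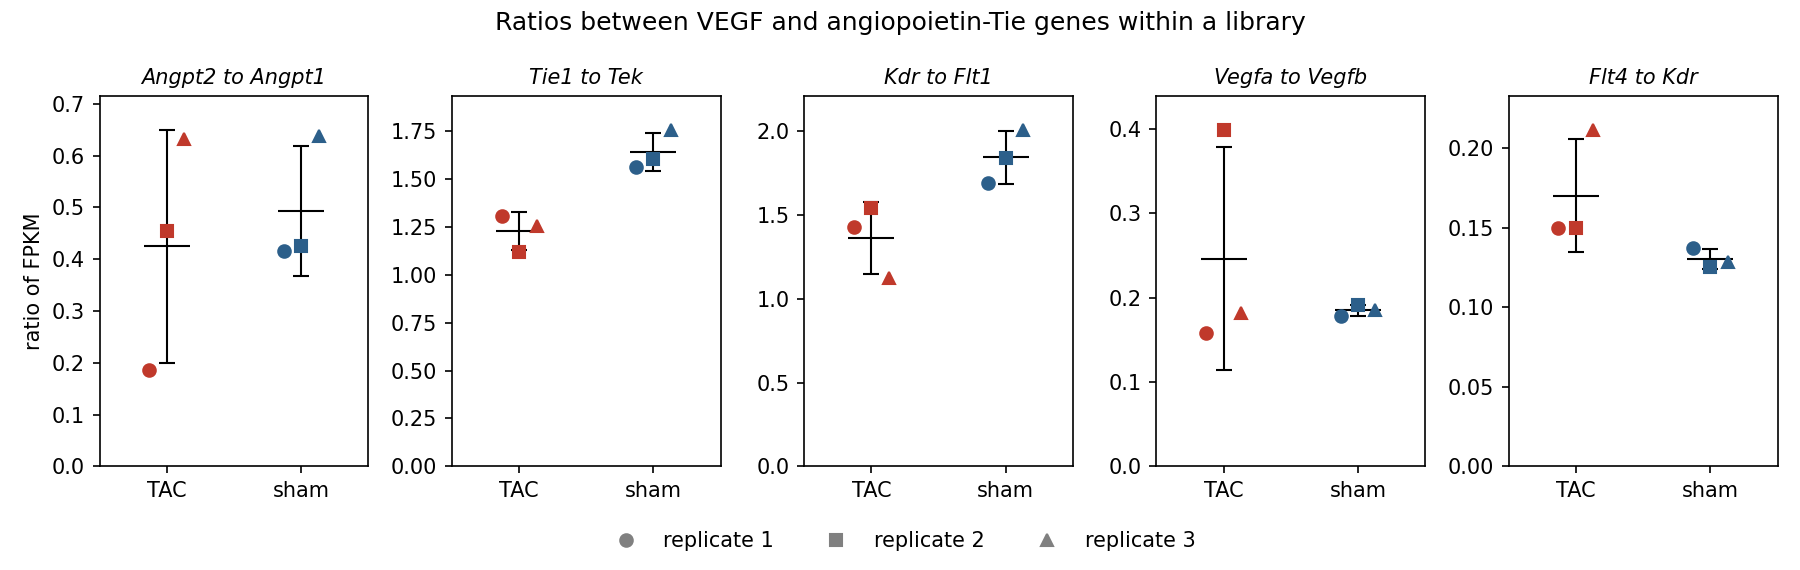
Ratios of FPKM between pairs of VEGF and angiopoietin-Tie genes within each library (y axes, linear, from 0) in 3 TAC (red) and 3 sham (blue) hearts, with the mean and SD as lines and the replicate number as marker shape. Tie1 to Tek and Kdr to Flt1 were lower and Flt4 to Kdr was higher in every TAC heart than in every sham heart; the other 2 ratios overlapped.

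Upstream sequences are shown for Tie1 with Tek and Kdr with Flt1, because the ratio within each of these receptor pairs did not overlap between the groups, and their promoters can be read side by side. The windows come from RefSeq (GRCm38.p6) and hold 250 bases before the RefSeq start, and 8 of the 10 genes had an entry. Only bases before the outermost start of the gene in the GENCODE annotation are printed, 5′ to 3′ on the strand of the gene. Flt4 to Kdr did not overlap either, but the Flt4 window holds 0 such bases, so no Flt4 sequence is shown. Capitals mark the letters GGAA or, for the other strand, TTCC, the core that ETS factors bind. The printed parts are chr4:118490062-118490099 on the minus strand for Tie1, chr4:94739039-94739288 on the plus strand for Tek, chr5:75978459-75978705 on the minus strand for Kdr and chr5:147726012-147726261 on the minus strand for Flt1.
Tie1: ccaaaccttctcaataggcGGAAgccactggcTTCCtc
Tek: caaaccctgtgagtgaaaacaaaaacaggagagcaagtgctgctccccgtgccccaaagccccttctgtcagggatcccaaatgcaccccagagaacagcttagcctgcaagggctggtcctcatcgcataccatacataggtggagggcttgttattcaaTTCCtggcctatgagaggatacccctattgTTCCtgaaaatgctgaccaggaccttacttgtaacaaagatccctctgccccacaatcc
Kdr: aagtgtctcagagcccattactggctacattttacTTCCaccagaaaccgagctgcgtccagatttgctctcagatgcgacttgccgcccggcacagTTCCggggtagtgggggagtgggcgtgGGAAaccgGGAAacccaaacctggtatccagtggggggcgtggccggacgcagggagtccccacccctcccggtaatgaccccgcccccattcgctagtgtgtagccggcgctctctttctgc
Flt1: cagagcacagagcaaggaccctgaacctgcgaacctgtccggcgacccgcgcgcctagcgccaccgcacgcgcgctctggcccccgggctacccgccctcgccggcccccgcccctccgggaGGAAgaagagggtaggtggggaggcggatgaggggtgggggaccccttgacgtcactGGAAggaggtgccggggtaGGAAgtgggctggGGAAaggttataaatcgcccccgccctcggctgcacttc

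Over the whole window of 250 bases, Tie1 had 7 matches to GGAA or TTCC. That number is reached by 3.82% of the 32851 windows in the table. Of the Tie1 matches, 2 lie in the 38 printed bases, and the others lie past the outermost GENCODE start, within the annotated gene. The window at the outer start of Vegfa had 6 matches (8.69% of windows have at least as many), and Vegfa had a log2 fold change of 0.06. Kdr and Flt1 had 4 matches each (33.4% of windows have at least as many) and Tek had 2 (76.8% of windows). At least 1 match was found in 93.4% of all windows. The core of the hypoxia response element, ACGTG on either strand, was found in 16.6% of all windows and in 1 of the 9 windows of these genes, an internal start of Vegfa. These are matches of letters and not binding sites.

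The receptors were set beside 20 other marker genes of blood endothelium. In bulk tissue, fewer cells of a type and less RNA per cell cannot be told apart. The mean log2 CPM of the 20 markers was 6.77, 6.86 and 6.91 in TAC hearts and 6.87, 6.98 and 6.92 in sham hearts, so the groups overlapped. The single markers were mixed. In CPM, 6 were lower in TAC without overlap (Pecam1, Cdh5, Egfl7, Robo4, Aqp1 and Ramp2), against 13.1% of all tested genes. Another 2, Emcn and Eng, were higher without overlap, against 18.4%. Tie1 minus the mean of the 20 markers was 0.22, -0.07 and -0.05 log2 units in TAC hearts, against 0.63, 0.55 and 0.57 in sham hearts. Tie1 was lower in TAC relative to the mean of these markers by 0.55 log2 units, without overlap. Since the marker mean overlapped between the groups, this largely follows from the lower Tie1 level itself. The share of all genes without overlap after this subtraction was not computed.

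The exact two-sided permutation test of this Tie1 difference gave p = 0.1, the smallest possible, and an adjusted p = 0.25 over the 5 receptors. Flt1 relative to the markers was 0.77, 1.08 and 0.85 log2 units in TAC hearts, against 0.73, 0.51 and 0.49 in sham hearts, also without overlap and with the same exact p and adjusted p. Kdr, Flt4 and Tek overlapped between the groups relative to the markers, with differences of -0.12, 0.25 and -0.14 log2 units and exact permutation p-values of 0.7, 0.2 and 0.3 (adjusted p = 0.7, 0.333 and 0.375). The Kdr difference was 0.043 log2 units without TAC replicate 3. Relative to the endothelial junction genes Pecam1 and Cdh5 alone, the Tie1 difference was -0.31 log2 units. The differences of Kdr and Tek changed sign there, to 0.13 and 0.11 log2 units. Those of Flt1 and Flt4 were larger there, at 0.57 and 0.49 log2 units, each with an exact permutation p = 0.1. Without TAC replicate 2, Flt4 relative to the 20 markers differed by 0.15 log2 units, and without TAC replicate 3 or sham replicate 1, Tek by -0.08.

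Of the 20 endothelial markers, only Aqp1 had a lower fitted log2 fold change than Tie1, and it was the only one called by edgeR. Aqp1, the water channel of capillary endothelium, was at 128, 89.8 and 125 FPKM in TAC hearts, against 208, 248 and 241 FPKM in sham hearts (edgeR adjusted p = 0.0363 for a fitted log2 change of -1.02 with an SE of 0.17). By edgeR the list had 0 higher, 1 lower and 19 that did not pass, with 1 higher and 3 lower at an unadjusted p under 0.05. DESeq2 called 1 higher and 2 lower, and limma 0 higher and 1 lower. The list had a median log2 fold change of -0.07. The Aqp1 call, like that of Tie1, held without TAC replicate 1 (edgeR adjusted p = 0.00640) and was lost without any other library, with adjusted p-values of 0.0506 to 0.20.

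Other ligands, co-receptors and processing factors of the same pathways showed 1 called gene of 9. Ccbe1, which encodes a secreted protein that is needed for the cleavage and activation of VEGF-C, was at 2.87, 2.49 and 2.07 FPKM in TAC hearts, against 1.47, 1.15 and 1.39 FPKM in sham hearts. All TAC libraries were above all sham libraries. It rose by a log2 fold change of 0.95 (edgeR adjusted p = 0.0485, SE 0.18). The call held without TAC replicate 1 or 3 (edgeR adjusted p = 0.0214 and 0.0294) and was lost without TAC replicate 2 (0.134) and without sham replicate 1, 2 or 3 (0.157 to 0.245). It held with DESeq2 (adjusted p = 9.98e-04) and was lost with limma-voom (0.0686), with limma on log2(FPKM + 1) (0.0923), without mitochondrial genes (0.0550), with RLE or upper-quartile factors (0.0547 and 0.0558) and without a filter on low counts (0.0606).

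The other 8 genes of that list did not pass. Vegfd, the second ligand of VEGFR3, was at 2.35, 2.28 and 2.99 FPKM in TAC hearts, against 1.78, 0.76 and 1.55 FPKM in sham hearts (edgeR adjusted p = 0.123 for a fitted log2 change of 0.90 with an SE of 0.31). Adamts3, the protease that cleaves VEGF-C together with the Ccbe1 product, was at 0.98, 1.1 and 0.59 FPKM in TAC hearts, against 1.78, 1.89 and 1.15 FPKM in sham hearts (edgeR adjusted p = 0.119 for a fitted log2 change of -0.84 with an SE of 0.28). The groups did not overlap for either gene.

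Of the neuropilins, co-receptors of the VEGF receptors, Nrp1 had a log2 fold change of 0.35 (edgeR adjusted p = 0.131, SE 0.12) and Nrp2 of -0.29 (adjusted p = 0.145, SE 0.11), each without overlap. Ptprb, the endothelial phosphatase that acts on Tie2, had a log2 fold change of -0.20 (adjusted p = 0.345, SE 0.13). Pgf, which encodes placental growth factor, a ligand of VEGFR1, had one of 0.36 (adjusted p = 0.298, SE 0.20), and Svep1, an extracellular matrix protein, one of 0.31 (adjusted p = 0.221, SE 0.15). Angpt4 was at 0.05 to 0.32 FPKM in TAC hearts and 0.20 to 0.35 FPKM in sham hearts. In this list of 9, 4 genes were higher and 3 lower without overlap in CPM, Pgf and Ptprb among them. Of all tested genes, 18.4% were higher and 13.1% lower without overlap.

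Genes that respond to VEGF or mark endothelial tip cells held 1 called higher by edgeR, 1 called lower and 12 that did not pass of 14 tested. DESeq2 called 2 higher and 3 lower, limma-voom 1 higher and 1 lower and limma on FPKM 0 higher and 1 lower. Aplnr, the receptor of apelin, was at 5.19, 5.09 and 5.18 FPKM in TAC hearts, against 26.2, 21.4 and 24.9 FPKM in sham hearts. All TAC libraries were far below all sham libraries and close to one another. It fell by 2.22 on the log2 scale (edgeR adjusted p = 3.24e-04, SE 0.12), and its call held without each library in turn. Its ligand gene Apln had a log2 fold change of -0.90 (edgeR adjusted p = 0.0833, SE 0.25), and Dll4, a Notch ligand that VEGF induces in tip cells, of -0.46 (adjusted p = 0.0940, SE 0.14). Most of the list went the other way, with 10 positive and 4 negative of 14 and a median of 0.22. Egr3 had a log2 fold change of 1.77 (edgeR adjusted p = 0.098, SE 0.54) and Trib1 of 0.50 (adjusted p = 0.0931, SE 0.15). At an unadjusted edgeR p under 0.05, 4 were higher and 3 lower.

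Adamts1, a secreted protease that binds VEGF-A, rose to 13.0, 24.2 and 28.9 FPKM in TAC hearts, against 8.40, 8.70 and 8.32 FPKM in sham hearts (edgeR adjusted p = 0.0349 for a fitted log2 change of 1.42 with an SE of 0.24). All TAC libraries were above all sham libraries, TAC replicate 1 the least. The call held without TAC replicate 1 (adjusted p = 9.84e-04), and without any of the other 5 libraries the adjusted p was 0.0593 to 0.203. The call was also lost with limma on log2(FPKM + 1) (adjusted p = 0.0718).

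Among 32 genes of the signalling chain inside the cell, 0 were called by edgeR or limma and 2, both lower, by DESeq2, with 3 higher and 2 lower at an unadjusted edgeR p under 0.05. The median log2 fold change was 0.10. The most abundant were Hspb1, a small heat shock protein downstream of p38, and Mapkapk2, a kinase that acts on it, which had a log2 fold change of 0.10 (edgeR adjusted p = 0.698, SE 0.15). Hspb1 was at 198, 203 and 867 FPKM in TAC hearts, against 169, 194 and 197 FPKM in sham hearts (edgeR adjusted p = 0.20 for a fitted log2 change of 1.14 with an SE of 0.50). TAC replicate 3 alone was far above the sham libraries. Plcg1, the phospholipase that VEGFR2 activates, had a log2 fold change of -0.45 (adjusted p = 0.0753, SE 0.12), Foxo1, a factor held down by Tie2 signalling, of -0.52 (adjusted p = 0.0802, SE 0.14) and Nos3, the endothelial nitric oxide synthase, of -0.20 (adjusted p = 0.319, SE 0.12). Others rose, such as Yes1 by 0.57 (edgeR adjusted p = 0.107, SE 0.18) and Nck1 by 0.55 (adjusted p = 0.141, SE 0.20). Of the 32 genes, 19 were positive and 13 negative.

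Hypoxia is a known inducer of Vegfa, Flt1 and Angpt2, and 0 of 21 hypoxia factors and targets were called by edgeR or limma and 1, higher, by DESeq2, with 3 higher and 1 lower at an unadjusted edgeR p under 0.05. Their median log2 fold change was 0.08. Bnip3, a mitochondrial target of hypoxia factors, was at 146, 157 and 95.5 FPKM in TAC hearts, against 72.7, 108 and 103 FPKM in sham hearts (edgeR adjusted p = 0.260 for a fitted log2 change of 0.49 with an SE of 0.25). Egln1, the main oxygen sensor of the pathway, had one of -0.27 (adjusted p = 0.478, SE 0.22). Hif1a had a log2 fold change of 0.46 (adjusted p = 0.194, SE 0.20) and Epas1 of -0.01 (adjusted p = 0.954, SE 0.12).

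Of 16 endothelial transcription factor genes tested, 0 were called by edgeR or limma and 2 higher and 1 lower by DESeq2, with 3 higher and 2 lower at an unadjusted edgeR p under 0.05, and the median log2 fold change was -0.02. Ets2 had a log2 fold change of -0.06 (edgeR adjusted p = 0.821, SE 0.14). Klf2, a factor induced by blood flow, had one of 0.75 (adjusted p = 0.0619, SE 0.16), with all TAC libraries above all sham libraries. Etv2, a factor of the embryonic endothelium, was listed at 0 in all libraries. Over the 5 pathway lists together, 2 genes were higher, 1 was lower and 89 did not pass of 92 tested, 53 positive and 39 negative. Without overlap in CPM, 17 of the 92 were higher and 13 lower, near the 18.4% and 13.1% of all tested genes.

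**Figure D4:**
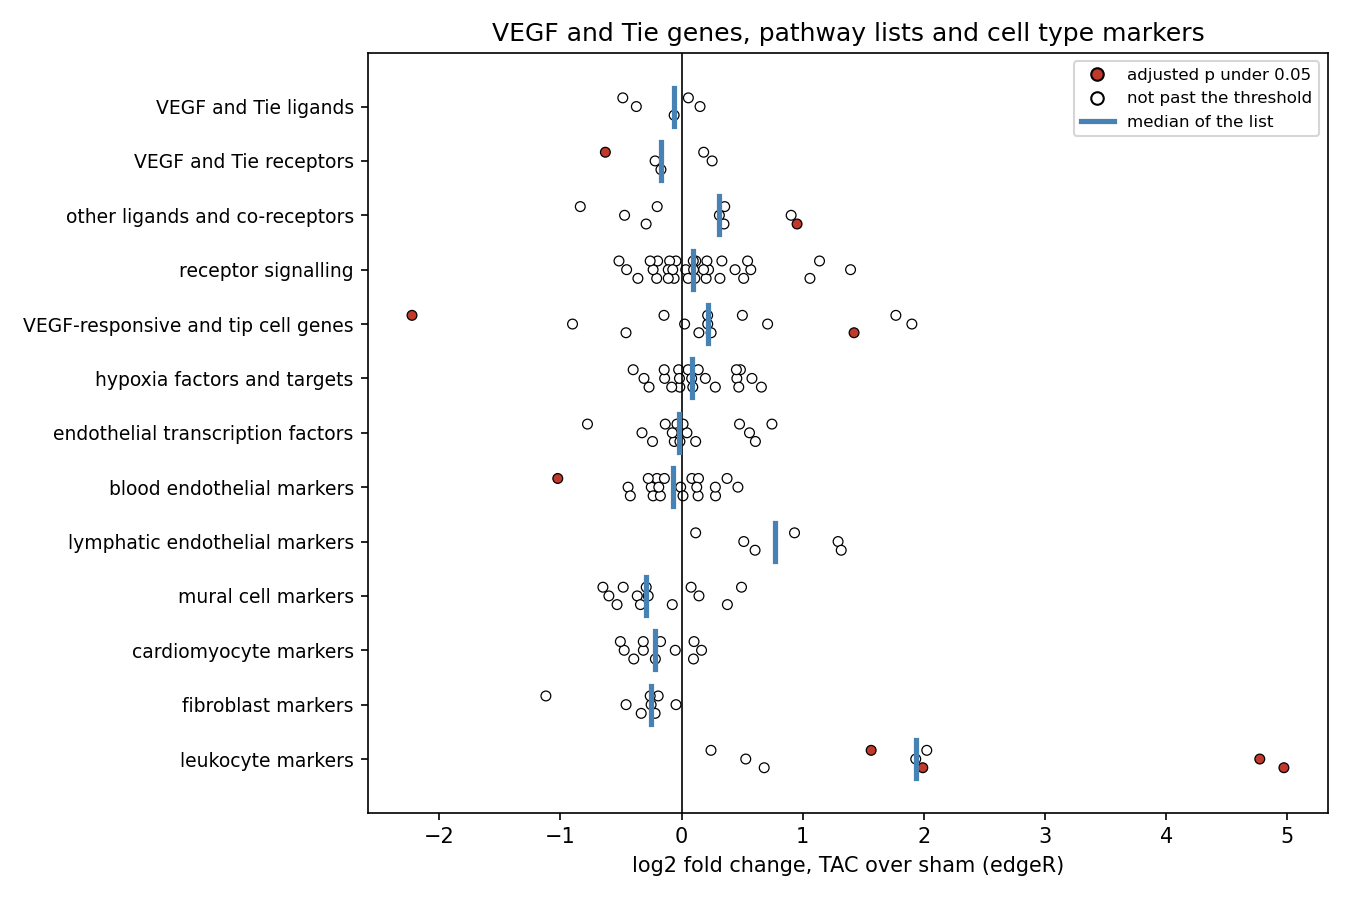
Fitted log2 fold changes of TAC over sham (x axis) for the tested genes of each list (y axis), with filled points past the threshold and a blue bar at the median of the list. The medians of the VEGF and Tie ligands and receptors were -0.06 and -0.17, those of the lymphatic and leukocyte markers 0.77 and 1.93.

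Marker genes of other cells that make or use these proteins were counted in the same way. All 6 lymphatic endothelial markers had a positive log2 fold change (median 0.77). None was called by edgeR or limma, 3 were called higher by DESeq2 and 4 were higher at an unadjusted edgeR p under 0.05. The summed level of this list was 99.5, 131 and 119 FPKM in TAC hearts, against 67.1, 71.0 and 70.6 FPKM in sham hearts. Ccl21a and Lyve1 made up most of that sum. Pdpn was at 5.1, 7.71 and 29.53 FPKM and Mmrn1 at 3.85, 13.85 and 4.97 FPKM in TAC replicates 1, 2 and 3. For each of these 2 genes, 1 TAC library thus stood far above the others. Lyve1, a hyaluronan receptor of lymphatic vessels that some macrophages also carry, had a log2 fold change of 0.93 (edgeR adjusted p = 0.0553, SE 0.19). Ccl21a, a chemokine of lymphatic endothelium, had one of 0.61 (adjusted p = 0.0814, SE 0.16; its near-identical copies make its count uncertain), and Prox1, the factor that defines the lymphatic lineage and is also expressed in cardiomyocytes, one of 0.12 (adjusted p = 0.661, SE 0.16). The part of these cells in the levels of Flt4, Vegfd and Ccbe1 was not tested.

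None of 13 mural cell markers was called by edgeR or limma (median -0.29), 4 were called lower by DESeq2, and 1 was higher and 6 lower at an unadjusted edgeR p under 0.05. Their summed level was 423, 438 and 408 FPKM in TAC hearts, against 576, 473 and 520 FPKM in sham hearts, and these cells are a known source of Angpt1. Acta2 had a log2 fold change of -0.60 (edgeR adjusted p = 0.0734, SE 0.15) and Rgs5 of 0.14 (adjusted p = 0.695, SE 0.21). Much of the difference in the sum lay in Acta2, with a mean of 140.8 FPKM in TAC and 213.0 FPKM in sham hearts. The mean of Rgs5 was 98.6 FPKM in TAC and 89.8 FPKM in sham hearts. None of 11 cardiomyocyte markers was called by edgeR or limma (median -0.22), and 2 were lower both by DESeq2 and at an unadjusted edgeR p under 0.05. Their summed level was 44900, 39146 and 32188 FPKM in TAC hearts, against 42537, 44317 and 43665 FPKM in sham hearts. Mb had a log2 fold change of -0.32 (adjusted p = 0.393, SE 0.22) and Myl2 of -0.05 (adjusted p = 0.885, SE 0.19). TAC replicates 2 and 3 were thus low both in this sum and in Vegfb, and the part of one in the other was not tested.

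None of 8 fibroblast markers was called by edgeR or limma (median -0.25), 1 was lower by DESeq2 and 2 at an unadjusted edgeR p under 0.05. Their summed level was 1390, 1396 and 1029 FPKM in TAC hearts, against 2019, 1807 and 2067 FPKM in sham hearts. Gsn alone was at 617, 498 and 291 FPKM in TAC hearts, against 1038, 958 and 1106 FPKM in sham hearts. Only 2 of the 8, Gsn and Tcf21, were lower without overlap in CPM, as were 13.1% of all tested genes. Fitted log2 changes were -1.12 (edgeR adjusted p = 0.0734, SE 0.29) for Gsn and -0.19 (adjusted p = 0.623, SE 0.23) for Dcn. Of 9 leukocyte markers tested, 4 were called higher by edgeR, 7 by DESeq2, 0 by limma-voom and 2 by limma on FPKM, 8 were higher at an unadjusted edgeR p under 0.05, and the median log2 fold change was 1.93. These were the neutrophil genes S100a8 (4.97) and S100a9 (4.77), the macrophage gene Cd68 (1.56) and Ptprc, which encodes CD45 (1.99). All 4 edgeR calls held without TAC replicate 1 and were lost without each of the other 5 libraries, with adjusted p-values of 0.0540 to 0.226. Their summed level was 338, 681 and 710 FPKM in TAC hearts, against 326, 285 and 321 FPKM in sham hearts. Lyz2, a lysozyme gene, made up most of that sum, with 246 FPKM in TAC replicate 1. In TAC replicate 1 the sum was close to the sham hearts, but the 4 called genes lay above every sham library, for example Cd68 at 20.7, 42.6 and 45.1 FPKM in TAC hearts, against 12.8, 10.03 and 13.6 FPKM in sham hearts. The part of leukocytes in the level of Tie1 was not tested.

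The genes whose profile over the 6 libraries was most like that of Tie1 were 9530068E07Rik, Prkab1 and Mgat4b. Likeness was the root mean square distance between profiles of log2 CPM, each centred on its sham mean, over the 8540 genes that averaged 10 CPM or more. The distances were 0.0434, 0.0639 and 0.0657 log2 units. The level of Prkab1, a regulatory subunit of the AMP-activated kinase, was 15.0, 12.1 and 14.5 FPKM in TAC hearts, against 20.7, 21.4 and 23.1 FPKM in sham hearts.

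For Vegfb, the most abundant of the 10 genes, the most similar profiles were those of Mdh2, Urod and Mrps36 at distances of 0.0230, 0.0274 and 0.0303 log2 units. Mdh2, the mitochondrial malate dehydrogenase, was at 726, 565 and 557 FPKM in TAC hearts, against 766, 820 and 820 FPKM in sham hearts, with TAC replicate 1 next to the sham libraries as for Vegfb. Mrps36 is named for the mitochondrial ribosome and Urod is an enzyme of haem synthesis. Among the profiles nearest to Tie1, Vegfb ranked 446 and Tek 1550. Vegfc and Angpt2 averaged under 10 CPM and were not compared.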

How the data were processed

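RNA of 6 mouse heart libraries, 3 TAC and 3 sham, was grouped by GEO's labels. Per the submitters' processing notes, the tools included Bowtie2 2.2.8, HISAT2, StringTie 1.3.1 and DESeq2, with the genome build GRCm38; the sources used here give neither the strand nor the annotation release. The authors deposited, for 22298 genes, estimated counts (whole numbers in the table for these 10 genes) and FPKM, per the file headers. The 10 genes, the lists and the tests were chosen with earlier results of these data known.

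Estimated counts were rounded, filtered with filterByExpr (minimum count 10), scaled by TMM and tested for TAC minus sham with the quasi-likelihood test of edgeR 4.0.16 in R 4.3.3. P-values were adjusted by Benjamini-Hochberg over all 13708 genes tested, with a threshold of 0.05. SEs were taken from the log2 fold change and the F statistic. FPKM served for levels, shares and ratios, log2 CPM (prior count 2) for profiles and overlap between groups. Ratios and receptor levels relative to markers were tested by exact two-sided permutation, adjusted over 5 each. Data were simulated for this comparison with the same dispersion for all genes and both groups, and run on 13627 genes. There, 98 of 99 genes changed by a log2 of 2 and 51 of 97 changed by a log2 of 1 were called. Alternatives were other scalings, filters and thresholds, DESeq2 1.42.0, limma 3.58.1 on counts and on FPKM, the replicate number as a block, each library left out and removal of the 13 mitochondrial genes, which held 26.9% to 30.5% of TAC and 25.8% to 29.1% of sham counts.

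Named were all 10 genes, the called genes of each list (at most 4) or, with none, the 2 of highest mean FPKM, and the 3 nearest profiles for Tie1 and Vegfb. Other list genes were named for their known role, or as examples of the other direction, after their values were seen. 22255 of the 22298 IDs carried a symbol.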

Additional observations from a re-analysis of the deposited data

How the results depend on the processing

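Over 19 alternatives, 171 of the 190 fold changes of the 10 genes kept their direction and side of the threshold. Tie1 stayed lower in all 19 (edgeR, DESeq2 or limma adjusted p of 3.19e-06 to 0.225) and passed in 12. The looser threshold of 0.10 counts among the 19 but is the main fit itself. Its directions and its pass of Tie1 were therefore fixed in advance. The genes called lower among the 10 were 1 in the report, 0 in limma on FPKM without a filter (Tie1 adjusted p = 0.0686), 0 with the replicate block (Tie1 adjusted p = 0.105) and 0 to 2 with 1 library left out. Vegfa changed sign with limma-voom (-0.017), with limma on FPKM plus 1 (-0.093), plus 0.1 (-0.099) and without a filter (-0.093), with the replicate block (-0.018) and without TAC replicate 2 (-0.35; range over left-out libraries -0.35 to 0.25). Angpt1 ranged from -0.037 to 0.37 (-0.037 without TAC replicate 1, -0.0070 without sham replicate 3) and Angpt2 from -0.68 to 0.21 (0.21 without TAC replicate 1, 0.08 without TAC replicate 2, 0.02 without sham replicate 1). Angpt2 to Angpt1 ranged from -0.73 to 0.15, Vegfa to Vegfb from -0.12 to 0.54 and Kdr relative to the endothelial markers from -0.30 to 0.043; against Pecam1 and Cdh5 alone, Kdr was 0.13 and Tek 0.11. The cause of these changes was not tested.

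Pathway genes called higher were 2 in the report, 1 with RLE or upper-quartile factors, limma-voom, no count filter or no mitochondrial genes, 0 in each of the 3 fits on FPKM and with the replicate block (Ccbe1 adjusted p = 0.0922), 6 with DESeq2, 8 at an adjusted p under 0.10, and 0 to 13 with 1 library left out. Those called lower were 1 in the report, 6 with DESeq2, 6 at 0.10 and 1 to 7 with 1 library left out. Of all genes, 153 were called higher and 74 lower in the report, 1071 and 598 with DESeq2, 1131 and 479 at 0.10, and 48 and 26 with the replicate block. Higher calls were 96 with limma-voom, 59 on FPKM plus 1, 64 on FPKM plus 0.1 and 17 on FPKM without a filter, which called 13 lower. With 1 library left out, 4 to 1837 were higher and 8 to 1392 lower, the largest counts without TAC replicate 1. Same-numbered TAC and sham libraries deviated with correlations of 0.011, -0.111 and -0.0245 and share only a number, and TAC replicates 2 and 3 correlated best with a sham library of another number.

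With 3 hearts per group, the self-test called 98 of 99 genes at a log2 change of 2 but 51 of 97 at 1. Smaller differences among the 10 genes can thus be missed. The self-test gave all genes the same biological coefficient of variation, 21.75%, in both groups. The 10 genes had a median coefficient of variation of FPKM of 17.8% in TAC and 5.24% in sham hearts. The rates of the self-test are therefore not those of these 10 genes.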
